A study of Mus musculus with 753 samples.

Results

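Cytosolic ribosomal protein genes encode the protein part of the ribosome that translates nuclear mRNAs. The rule took every row of the combined expression table whose symbol is Rps or Rpl followed by a number, with or without a final a or x, together with Rpsa, Rplp0, Rplp1 and Rplp2. It found 76 of 24685 genes, of which 30 encode proteins of the small subunit and 46 encode proteins of the large subunit. Ribosomal proteins are made in nearly equal numbers because each ribosome holds a single copy of most of them. Their mRNAs are known for a run of C and T bases at the very start of the transcript, the terminal oligopyrimidine tract, through which mTOR signalling and the RNA-binding protein LARP1 control their translation. Myc is a known activator of ribosome production, and basal keratinocytes are the dividing cells of the epidermis.

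The cells came from adult Gata6EGFPCreERT2 mice (Gata6EFGPCreERT2 in the labels) crossed with Rosa26-fl/STOP/fl-tdTomato mice, each heterozygous for Cre and for tdTomato. All mice, controls included, received topical 4-hydroxytamoxifen on the back skin, which switches on tdTomato in cells that express Gata6 at that time, and in their descendants. Single keratinocytes were sorted from full-thickness back wounds on days 6, 9 and 11 and from intact skin of mice used for days 9 and 11 (day 0), as tdTomato-positive cells (lin+) and tdTomato-negative cells (lin-), and were sequenced by Smart-seq2, which covers whole transcripts and uses no molecular identifiers. The label is set by the Gata6 locus, so lin+ cells are cells with a Gata6 history, which in intact skin lie in the sebaceous duct and the upper part of the follicle, and lin- cells are all other sorted cells. The annotated cells form 14 sets, each of 1 lineage, 1 day and 1 replicate, with 26 to 93 cells per set. Replicate 1 of days 0, 9 and 11 forms the first batch (222 cells) and replicate 2 of these days, with all day 6 cells, the second (462 cells). On days 9 and 11 a replicate is 1 mouse. Day 6 was sampled in 2 replicates of 3 mice, but its labels do not tell them apart, so each lineage has 1 day 6 set that merges both replicates and all 6 mice. Day 0 therefore shares mice with days 9 and 11 and none with day 6.

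The batches hold different units, so levels were set side by side only within a batch, or after conversion to TPM, a read count per length scaled to 1000000 per cell. The first batch holds read counts and the second RPKM. In cells with at least 200 detected genes, the median cell had 4658010 reads and 2389.5 genes in the first batch, and 2756790 recovered reads and 2586 genes in the second. The median cell held reads of 74 of the 76 members in the first batch and of 68 in the second. The markers of the lineage went with the labels: Krt79 and Cst6, which mark the upper follicle, were higher in lin+ than in lin- cells of unwounded skin (log2 fold change 3.31 ± 0.38 and 3.42 ± 0.43 SE, limma adjusted p = 0.0331 for both). Summed melanocyte markers (Dct, Tyr, Tyrp1, Mlana and Pmel) took 6814 and 6491 per 1000000 of the cell total in the replicate 2 sets of lin- cells on days 9 and 11 and 491 or less in the other 12 sets. Summed fibroblast, T cell and endothelial markers stayed under 100 on this scale in every set and myeloid markers under 200. The part of these cells in the results was not tested.

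4 cells stood apart before any comparison. The study removed cells with fewer than 200 detected genes, yet 4 annotated cells fell under this number, all of them lin- cells of the identity IFE-B. A day 6 cell with 182 genes held 982 reads, of which 147 were from Rps16 (15.0%, 95% exact binomial interval 12.8% to 17.4%), and this 1 gene took 39.95% of its RPKM. A day 9 cell of replicate 1 held 18 reads from 8 genes, 2 of them from Rpl22 (11.1%, interval 1.38% to 34.7%). A day 0 cell of replicate 1 and a day 11 cell of replicate 2 held 42 and 5 reads and no read of any member, which allows a share of up to 7.14% and 60.0% (3 reads of the total). The intervals cover counting error only, since PCR copies are not independent molecules. Results that these cells move are given with and without them. A further 40 cells held at least 200 but under 1000 genes, 18 of them in the lin- set of day 6 and 14 in the lin+ set of day 6.

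The 76 genes together took a median of 2.36% of the cell total in the first batch (5th to 95th percentile 1.04% to 3.73%) and 1.80% in the second (0.792% to 3.59%). The mean share was higher in wounds than in day 0 skin in all 10 comparisons within a lineage and batch, by 1.10 to 1.90 times (median 1.32). Comparisons within a lineage and batch share the same day 0 set, so they are not independent. In lin+ cells of the first batch, it was 1.91% ± 0.863 on day 0, 2.84% ± 1.50 on day 9 and 2.52% ± 0.762 on day 11 (SD over cells, n = 47, 42 and 32 cells). In lin- cells of the first batch, it was 2.10% ± 0.809 on day 0, 3.37% ± 2.11 on day 9 and 2.43% ± 0.522 on day 11 (n = 47, 28 and 26 cells). The second batch gave lin+ means of 1.48% ± 0.489, 1.96% ± 0.849, 1.62% ± 0.654 and 2.00% ± 0.695 on days 0, 6, 9 and 11 (n = 46, 93, 44 and 47 cells). Its lin- means were 1.63% ± 0.710, 3.10% ± 4.19, 1.81% ± 0.539 and 1.90% ± 0.631 on the same days (n = 48, 93, 44 and 47 cells). Without the 4 cells under 200 genes the lin- means were 3.08% on day 9 and 2.15% on day 0 of the first batch, and 2.70% on day 6 and 1.94% on day 11 of the second. The ranges of single cells overlapped between all sets, and the lin- set of day 6 was the highest of its batch.

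**Figure D1:**
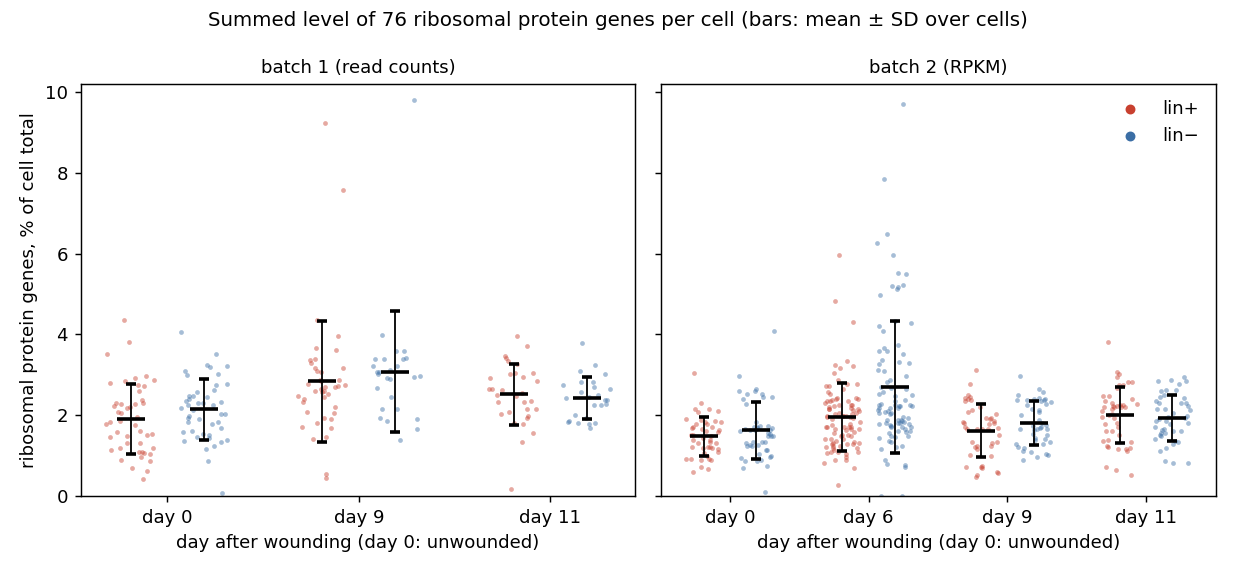
Share of the cell total taken by the 76 cytosolic ribosomal protein genes (percent, vertical axis) in each cell with at least 200 detected genes, by day after wounding (horizontal axis), batch (panels) and lineage (lin+ left of lin- at each day). Points are cells and bars are the mean with the SD over cells. Day 0 means are the lowest of their lineage in both batches, and single cells overlap between all sets.

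The ratios differed with what was counted in the cell total. Without the 4 cells under 200 genes the ratios of wound to day 0 ran from 1.10 to 1.65, and with medians over cells in place of means from 1.12 to 1.48, above 1 in 10 of 10 in both cases. Within cells of the deposited identity IFE-B (interfollicular basal) they ran from 1.14 to 2.24, and to 1.84 without those 4 cells, again above 1 in 10 of 10. This identity held 23 of 47 and 21 of 46 lin+ cells of day 0 in replicates 1 and 2. The paper could not detect basal lin+ cells in unwounded skin, so the identity may not hold the cell type fixed. The rows of ribosomal RNA (Rn45s and Rn18s) took a mean of 13.6% to 17.0% of reads in the wound sets of the first batch, against 27.5% in lin+ and 30.3% in lin- cells of day 0, and at most 0.962% in any set of the second. With these rows left out of the total, the ratio was above 1 in 9 of 10 and the lowest was 0.876 (0.858 without the 4 cells). As a share of TPM it was also above 1 in 9 of 10, with a lowest value of 0.952 (0.931 without them). The exception under both was the first batch's lin- set of day 11. No p is given for the summed share, because the genes were chosen with earlier results known.

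**Figure D2:**
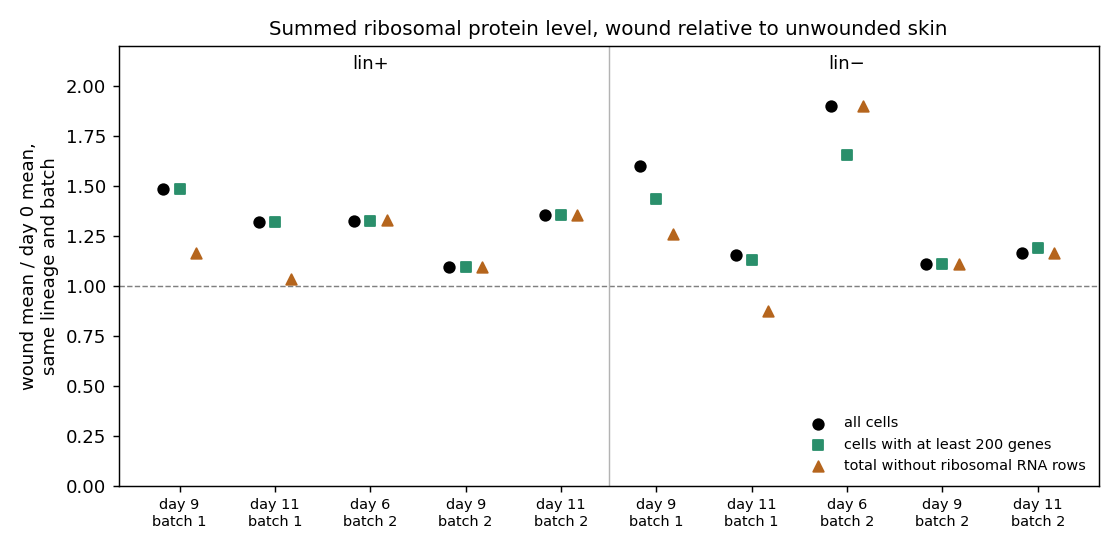
Mean share of the ribosomal protein genes in each wound set divided by that of the day 0 set of the same lineage and batch (vertical axis, ratio, dashed line at 1) for the 10 wound sets (horizontal axis), with all cells, with cells of at least 200 genes, and with ribosomal RNA rows left out of the cell total. All 10 ratios lie above 1 with all cells, and 9 of 10 without the ribosomal RNA rows.

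Between the lineages of a mouse set the summed share differed in either direction. The mean of lin+ cells was below that of lin- cells of the same mice in 5 of 7 mouse sets, with ratios from 0.634 to 1.05 and a median of 0.907. Without cells under 200 genes the ratios ran from 0.728 to 1.04. The 2 ratios above 1 were those of day 11. In IFE-B cells alone, 3 of 7 ratios were above 1, from 0.595 to 1.24, with a median of 0.999, and without those cells from 0.722 to 1.18. The difference was smaller than the SD over the lin- cells in every mouse set.

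Cells with few detected genes had high shares in the lin- set of day 6. There, 18 cells with at least 200 but under 1000 genes had a median share of 5.05% (0% to 9.70%), and the 74 cells with at least 1000 genes one of 2.10% (0.774% to 5.23%). In the lin+ set of day 6 the 14 cells with at least 200 but under 1000 genes had a median of 2.13% and the other 79 cells one of 1.92%. The mean share of the lin- set of day 6 was 2.26% over cells with at least 1000 genes, against 1.63% in the day 0 set of replicate 2. Whether the number of detected genes accounts for the difference was not tested.

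The 2 subunits did not take equal shares. Their sums hold 30 small-subunit and 46 large-subunit genes, so a ratio under 1 is not by itself a difference per gene. In the first batch small-subunit genes took 0.506 to 0.693 times the share of the large-subunit genes, and in the second 0.733 to 0.857 times, except in the lin- set of day 6 with 1.06 times, which includes the cell dominated by Rps16. Without cells under 200 genes this set gave 0.770 times, and the first batch 0.563 to 0.693 times. In wounds against day 0, small-subunit genes gave ratios of 1.04 to 2.11 (to 1.56 without those cells) and large-subunit genes of 1.14 to 1.77 (to 1.74), above 1 in 10 of 10 for both.

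The share varied between the deposited cell identities, which the authors assigned from genes of these cells, so the values are given without a test. Cells labelled as interfollicular basal (IFE-B) had a median share of 2.58% in 142 cells of the first batch and 2.08% in 231 of the second. Outer bulge cells (OB), which belong to a stem cell zone of the follicle, had 1.89% in 24 and 1.74% in 97 cells. The largest upper follicle identity, uHF-I, had 1.88% in 36 and 1.50% in 79 cells. The lowest level was that of uHF-III, an upper follicle identity made almost wholly of lin+ cells (26 of 27), with 0.622% in 5 cells of the first batch and 0.774% in 22 of the second. Sebaceous gland cells (SG) had 2.30% in 7 and 2.42% in 16 cells. The first differentiated interfollicular identity (IFE-DI) had 2.82% in 3 and 2.36% in 5 cells, uHF-II had 3.28% in 5 and 1.49% in 10 cells, and IFE-DII had 0.977% in 2 cells of the second batch.

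Within sets, OB and the upper follicle identities mostly lay below IFE-B. Among sets with at least 5 cells of both identities, the median share was below that of IFE-B cells in 8 of 9 sets for OB (0.693 to 1.17 times), in 7 of 8 for uHF-I (0.579 to 1.00 times, median 0.756) and in 2 of 2 for uHF-III (0.321 and 0.380 times). The only such set for SG gave 1.21 times. By deposited cluster, medians ran from 1.88% (cluster 3) to 2.59% (cluster 0) in the first batch and from 1.33% (cluster 3) to 2.198% (cluster 2) in the second. Cluster 2 was the one with the fewest detected genes, 1417.5 and 1305 per cell in the median.

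**Figure D3:**
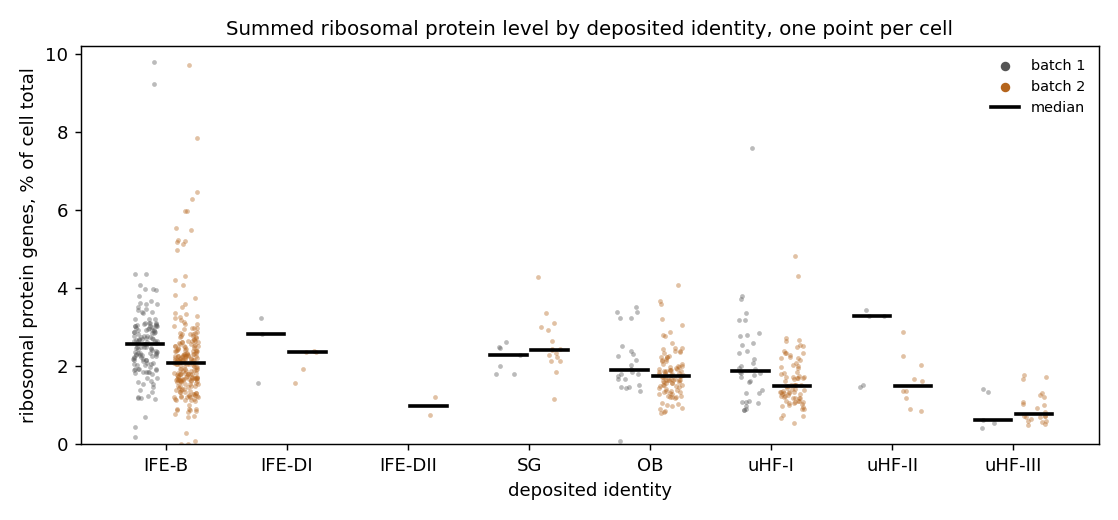
Share of the cell total in the ribosomal protein genes (percent, vertical axis) by deposited cell identity (horizontal axis), for cells with at least 200 genes, with 1 panel per batch. Points are cells and bars are medians. The uHF-III cells lie lowest in both batches, with medians of 0.622% and 0.774%.

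Within a set, cells with more of these mRNAs also held more of the rest of the translation machinery. Over the cells of each set, the share had a median Spearman correlation of 0.449 with the summed level of elongation factors such as Eef1a1 and Eef2, which move the ribosome along the mRNA (positive in 13 of 14 sets). The same value was 0.385 with other mRNAs known to carry a terminal oligopyrimidine tract, such as Tpt1 and Npm1 (13 of 14), and 0.499 with paralogs of ribosomal proteins (14 of 14). The correlation was 0.255 with initiation factors and 0.247 with mitochondrial ribosomal proteins, positive in 13 of 14 sets for both. Regulators of ribosomal protein synthesis, among them Myc, Mtor and Larp1, gave 0.0893 (9 of 14). The nuclear RNAs Malat1, Neat1 and Kcnq1ot1 gave -0.278 (positive in 2 of 14) and the upper follicle markers -0.245 (0 of 14). Basal and suprabasal keratinocyte markers gave 0.113 and -0.0177. The cells of a set share library preparation, all shares are parts of 1 total, and the share itself had a median correlation of 0.117 with detected genes and -0.181 with reads, so these values are descriptions.

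The members differed widely in level. As TPM, mean over the 14 sets with the SD over sets, Rpl41 was highest at 3945 ± 2903, followed by Rplp1 at 2324 ± 1848, Rpl8 at 2025 ± 815, Rps14 at 1952 ± 772 and Rpl32 at 1592 ± 574. Rpl41 encodes the smallest protein of the ribosome, and Rplp1 an acidic protein of the stalk that recruits elongation factors. The lowest were Rps15a at 10.3 ± 5.22, Rpl39 at 17.7 ± 10.7, Rpl31 at 34.1 ± 18.7, Rps12 at 35.4 ± 23.2 and Rps4x, an X-linked member, at 38.3 ± 14.9. The order depended in part on the batch: Rplp1 ranked 2 of 76 in the first batch, at 4115 ± 1399 (SD, n = 6 sets), and 5 of 76 in the second, at 981 ± 361 (n = 8 sets), below Rpl8, Rps14 and Rpl32. Rpl41 was the highest and Rps15a the lowest in both. The place of Rps15a depends on the length that TPM divides by. This was 5136 bases for Rps15a and 2040 for the next longest member, Rpl22. In the first batch, mean reads scaled to the cell total were 42.4 to 64.3 for Rps15a before division by length. Rpl39 was lower in each of these sets, at 4.64 to 8.26. The second batch's RPKM are already divided by length. In TPM, and so with this length, the highest and the lowest mean differed 383-fold. The top 5 genes held 35.2% of the members' TPM and the top 10 held 52.7%. Only Rpl39 was detected in fewer than 50% of cells (49.6%), and 18 members were detected in at least 90%. The order of the members was alike across sets, with Spearman correlations of 0.677 to 0.989 over the 76 genes for the 91 pairs of sets (median 0.810).

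**Figure D4:**
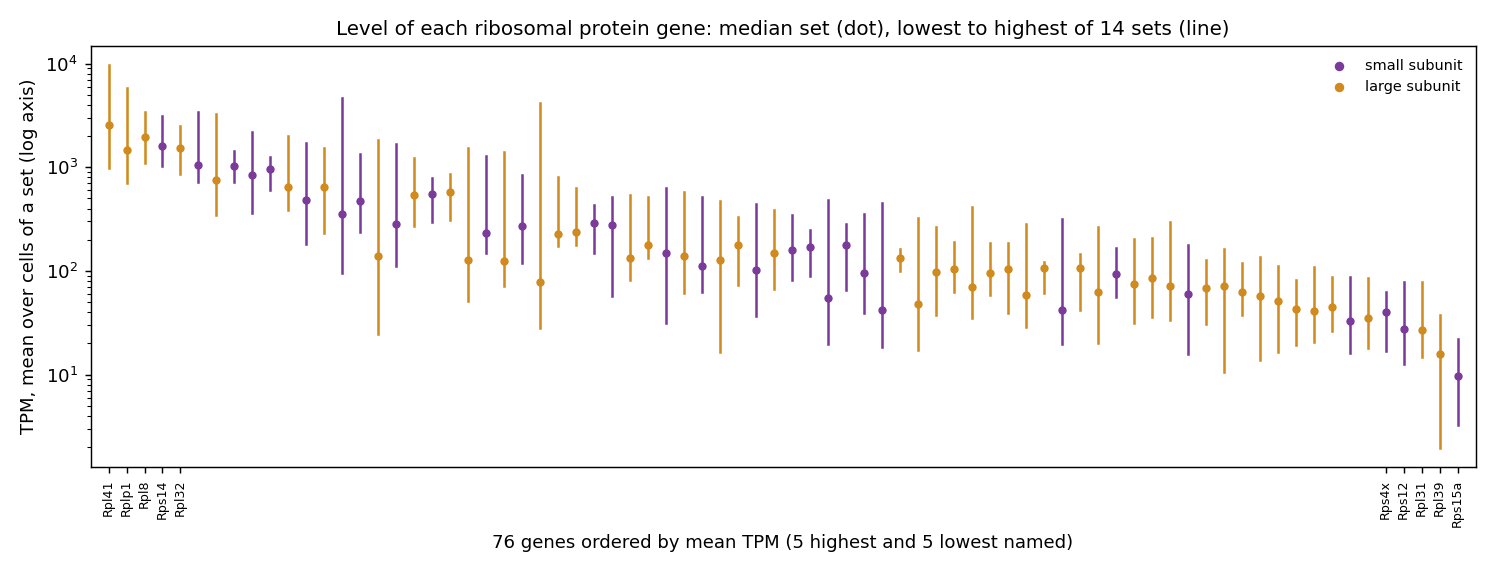
Level of each of the 76 genes in TPM (vertical log axis), ordered by mean level along the horizontal axis, where the 5 highest and the 5 lowest are named, and coloured by subunit. Dots are the median of the 14 sets and lines run from the lowest to the highest set. Medians span from 9.77 TPM for Rps15a to 2569 TPM for Rpl41, and the sets include the 4 cells under 200 genes.

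The level of a member also depended on the batch. In day 0 skin, 74 of 76 members had a higher TPM in the first batch than in the second, with a median ratio of 2.998. The ratio was 10 or more for 7 genes, among them Rpl13a (16.9), Rps28 (15.1), Rps21 (14.4), Rpl36 (14.2), Rps10 (13.7) and Rps26 (10.0). It was lowest for Rpl15 (0.936). Many members have processed pseudogenes, and the reads of near-identical copies can be lost or split by a counter that keeps only uniquely placed reads. Of the 75-base windows in a member's transcripts, a median of 32.3% also occurred in transcripts of another gene. None did for Rps3, and 89.2% did for Rpl35. The 11 members with under 10% of windows shared had a median of 416 TPM, the 41 with 10% to 50% one of 217 TPM and the 24 with at least 50% one of 115 TPM. Over the 76 genes the Spearman correlation of the shared percentage was -0.325 with mean TPM and -0.0987 with the ratio of the batches. Levels of single members with many shared windows are therefore uncertain.

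The members varied together from cell to cell, some more than others. The Spearman correlation between a member and the sum of the other members over the cells of a set, taken as the median over 14 sets, had a median of 0.333 over the 76 genes, and 51 genes exceeded 0.3. The most alike were Rps14 (0.575), Rpl32 (0.535) and Rpl35 (0.521). The least alike were Rpl12 (0.180), Rpl29 (0.183), Rps27a (0.188), Rpl39 (0.195) and Rpl22 (0.203). Rpl12 and Rps14 were both detected in most cells, 68.4% and 95.3%. Over the members, likeness had a Spearman correlation of 0.363 with mean TPM, so that low level and weak likeness tended to go together. There were exceptions, such as Rpl8 (2025 TPM, likeness 0.218) and Rpl29 (653 TPM, 0.183). Whether sparse counts account for weak likeness was not tested.

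The DNA around the start sites was searched for the pyrimidine tract that these genes are known for. The following stretches run from 25 bases before to 15 bases after the annotated start, in RefSeq GRCm38.p6. They are shown for the members with the highest and the lowest TPM and for a member of high likeness. Rpl27a, Rplp0 and Rps16, which are described singly below, are also shown. Capitals mark the longest run of C or T bases near the start where it has at least 8.
Rpl41: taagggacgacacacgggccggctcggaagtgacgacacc
Rps15a: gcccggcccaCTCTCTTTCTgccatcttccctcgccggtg
Rpl35: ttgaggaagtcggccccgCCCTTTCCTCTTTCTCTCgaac
Rpl27a: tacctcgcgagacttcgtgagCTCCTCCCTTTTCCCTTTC
Rplp0: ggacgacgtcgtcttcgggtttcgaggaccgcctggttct
Rps16: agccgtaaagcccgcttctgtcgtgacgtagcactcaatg
They lie at chr10:128549154-128549193 (minus strand) for Rpl41, chr7:118116133-118116172 (minus) for Rps15a, chr2:39005117-39005156 (minus) for Rpl35, chr7:109519170-109519209 (plus) for Rpl27a, chr5:115559442-115559481 (plus) for Rplp0 and chr7:28350664-28350703 (plus) for Rps16. The run is 18 bases long in Rpl35 and 20 in Rpl27a, of which 1 lies past the printed end, and it is 10 in Rps15a, while no run of 8 lies within these stretches of Rpl41, Rplp0 and Rps16. RefSeq windows were matched for 56 of the 76 members. A run of at least 8 C or T bases within 10 bases of the start was found on the transcript's strand in 27 of them (48.2%), against 16.1% of 27025 genes. In the window from 250 bases before to 50 after the start, on either strand, CCGGAA, the core bound by ETS-family factors, was found in 55.4% of members and 16.7% of all genes. The E-box CACGTG, which Myc and other factors can bind, was in 10.7% of members and 8.09% of genes and TATAAA in 10.7% and 15.7%. A match of letters is no evidence of a bound factor.

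Single members were then compared between groups on the means of sets, each scaled value being the share of the cell total per 1000000 after the sets of a batch were scaled to each other. The test was limma on log2(value + 1) over 10663 genes with Benjamini-Hochberg adjustment, in which all 76 members were tested. The set of cells and not the cell is the replicate. Days 0, 9 and 11 have 2 replicates each and day 6 has 1 merged set, and in each lineage the contrasts of wound with day 0 share that lineage's day 0 sets.

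In lin+ cells, no member passed the threshold on days 9 and 11 against day 0. Among all genes, 0.0938% did (9 higher and 1 lower). At an unadjusted p under 0.05 limma gave 4 of 76 members (10.1% of all genes), and edgeR on the reads called 0 members after adjustment. The members' median log2 fold change was 0.17 against 0.15 for all genes, and 46 of 76 were above 0 (55.8% of all genes). The largest values were those of Rpl36 (1.05 ± 0.51 SE) and Rplp0 (1.03 ± 0.27), and the lowest those of Rpl23 (-1.01 ± 0.54), Rps24 (-0.86 ± 0.51) and Rpl9 (-0.82 ± 0.65).

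Rplp0, which anchors the stalk on the large subunit and is widely used as a reference gene in PCR, came nearest to the threshold. Its scaled values in lin+ cells of the first batch were 1204 on day 0, 2399 on day 9 and 2703 on day 11. In lin+ cells of the second batch they were 358, 488, 671 and 746 on days 0, 6, 9 and 11. All 4 sets of days 9 and 11 lay above the day 0 set of their batch (limma p = 0.00233, adjusted p = 0.239 over all genes). In lin- cells the first batch gave 1619, 1916 and 1796 on days 0, 9 and 11, and the second 577, 829, 489 and 535 on days 0, 6, 9 and 11. There the 2 batches went in opposite directions on days 9 and 11. The difference between the lineages in the change was 1.02 ± 0.38 on the log2 scale (limma p = 0.0203, adjusted p = 0.647). The fit of this difference did not pair the 2 lineages of a mouse set. When each mouse set was left out in turn, the change in lin+ cells lay between 0.98 and 1.09 and the difference between lineages between 0.90 and 1.15.

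Rps24 was low in wounds mainly in the first batch. In the first batch its scaled value was 133 on day 0, 45.3 on day 9 and 43.7 on day 11 in lin+ cells. The lin- values were 144, 50.6 and 38.3. In the second batch it was 194, 205, 159 and 190.2 in lin+ cells on days 0, 6, 9 and 11. The lin- values were 229, 174, 144 and 213. Rpl23 was lower than on day 0 in every lin+ wound set, at 144, 69.7 and 51.6 on days 0, 9 and 11 in the first batch and 108, 40.4, 46.0 and 84.1 on days 0, 6, 9 and 11 in the second. It did not pass the threshold on days 9 and 11 (adjusted p = 0.556), nor on day 6 (log2 fold change -1.65 ± 0.78, adjusted p = 1.00), where it lay over 3 scaled MADs below the median of the members.

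In lin+ cells of day 6 against day 0, no member and none of all genes passed the threshold (0% of 10663). At an unadjusted p under 0.05 there were 3 members, against 4.31% of all genes, and edgeR called 0 members. The members' median was 0.34, against 0.10 for all genes, and 52 of 76 were above 0 (53.2% of all genes). Rps9, a protein of the small subunit, had a scaled value of 299.8 on day 6, against 123 on day 0 in the same batch and 189 in the other (log2 fold change 1.42 ± 0.53, p = 0.0197, adjusted p = 1.00). The other highest were Rpl36 (1.57 ± 0.74) and Rpl24 (1.46 ± 0.96), and the lowest after Rpl23 were Rpl9 (-0.89 ± 0.95) and Rpl34 (-0.71 ± 0.68). The day 6 values rest on 1 set.

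In lin- cells on days 9 and 11 against day 0, no member passed the threshold either, with 0.188% of all genes called (16 higher and 4 lower). At an unadjusted p under 0.05 there was 1 member, against 12.8% of all genes, and edgeR called 0 members. The median was 0.12 for the members and 0.12 for all genes, and 49 of 76 members were above 0 (53.7% of all genes). Rpl3, which lies near the ribosome's catalytic centre, had scaled values of 97.8, 180 and 221 on days 0, 9 and 11 in the first batch and 36.9, 77.1, 72.5 and 88.8 on days 0, 6, 9 and 11 in the second. Every lin- wound set was above day 0 for this gene (log2 fold change 1.06 ± 0.48, p = 0.0449, adjusted p = 0.384). The lowest values were those of Rps12 (-1.49 ± 0.80), Rpl31 (-1.19 ± 0.75) and Rps24 (-1.03 ± 0.51), all over 3 scaled MADs below the median of the members. For Rps12, 1 cell held 59.3% of the summed value of the lin- day 0 set of replicate 2.

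Rpl22 had the highest value of this contrast, 1.35 ± 1.06, and it came from the cell of 18 reads. Its scaled value was 3934 in the lin- set of day 9, replicate 1, and 44.1 to 192 in the other 13 sets. This 1 cell held 98.1% of the set's sum. Without cells under 200 genes the log2 fold change was -0.07.

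In lin- cells of day 6 against day 0, 1 member passed the threshold, and 0.0375% of all genes did (4 of 10663, all higher). This was Rps16, a small-subunit protein near the decoding site, with a scaled value of 5226 on day 6, against 93.0 on day 0 in the same batch (log2 fold change 5.30 ± 0.68, adjusted p = 0.0129). The cell of 182 genes held 96.0% of the summed Rps16 value of this set of 93 cells. The mean before scaling was 4473 with this cell and 179 without it, against 94.4 on day 0. Without cells under 200 genes the log2 fold change was 0.65 and the gene did not pass the threshold (adjusted p = 0.979). edgeR on the summed reads gave 0.64 (adjusted p = 1.00) and called 0 members.

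The other members were also mostly higher in lin- cells of day 6. Of 76, 66 had a log2 fold change above 0 (53.1% of all genes), with a median of 0.66 against 0.11 for all genes, and 13 had an unadjusted p under 0.05, against 6.01% of all genes. Without cells under 200 genes the median was 0.65, with 66 of 76 above 0 and 12 at an unadjusted p under 0.05. The ribosomal RNA rows were also higher in this contrast. Rn45s, the precursor of the ribosomal RNAs, had a scaled value of 3533 on day 6, against 195 on day 0 in the same batch (log2 fold change 4.12 ± 0.36, adjusted p = 0.000463). These rows took a mean of 0.962% of reads on day 6 (median 0.205%, and a mean of 0.2999% over cells with at least 1000 genes), against 0.0653% on day 0 (median 0.0522%). With them left out of the cell total, the ratio of the members' mean share to day 0 was 1.902, against 1.900 with them. Without cells under 200 genes these ratios were 1.656 and 1.654. Rpl27a had a scaled value of 182 on day 6, against 10.4 on day 0 in the same batch and 64.2 in the other (log2 fold change 3.11 ± 0.96, p = 0.00686, adjusted p = 0.610). For Rpl37a the values were 172 on day 6, against 16.3 and 160 (2.44 ± 0.83, p = 0.012, adjusted p = 0.690). For both genes the lin- day 0 set of replicate 2 was the lowest of all 14 sets. Rps20 had 2527 on day 6, against 687 on day 0 in the same batch (2.07 ± 0.51, p = 0.00145, adjusted p = 0.344), and Rpl41 had 3525, against 963 (1.67 ± 0.46, p = 0.00313, adjusted p = 0.491). Rps20 is named here because it had the lowest p after Rps16, a choice made after its values were seen.

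Cells with few genes took part in these values. In cells with at least 1000 genes, the mean before scaling was 60.2 for Rpl27a, against 155 over all cells of the lin- set of day 6. It was 1145 against 2163 for Rps20, 2144 against 3018 for Rpl41 and 135 against 147 for Rpl37a. 1 cell with 448 genes held 57.4% of the summed value of Rpl27a, and 1 with 493 genes held 35.5% of that of Rps20. With cells of at least 1000 genes only, the members' median was 0.41, against 0.12 for all genes, 59 of 76 were above 0 and 4 had an unadjusted p under 0.05. Within replicate 2 alone the median over all cells was 0.74, with 64 of 76 above 0. The lowest members were Rps12 (-1.43 ± 1.16), Rpl10a (-0.93 ± 0.66) and Rps24 (-0.81 ± 0.75).

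**Figure D5:**
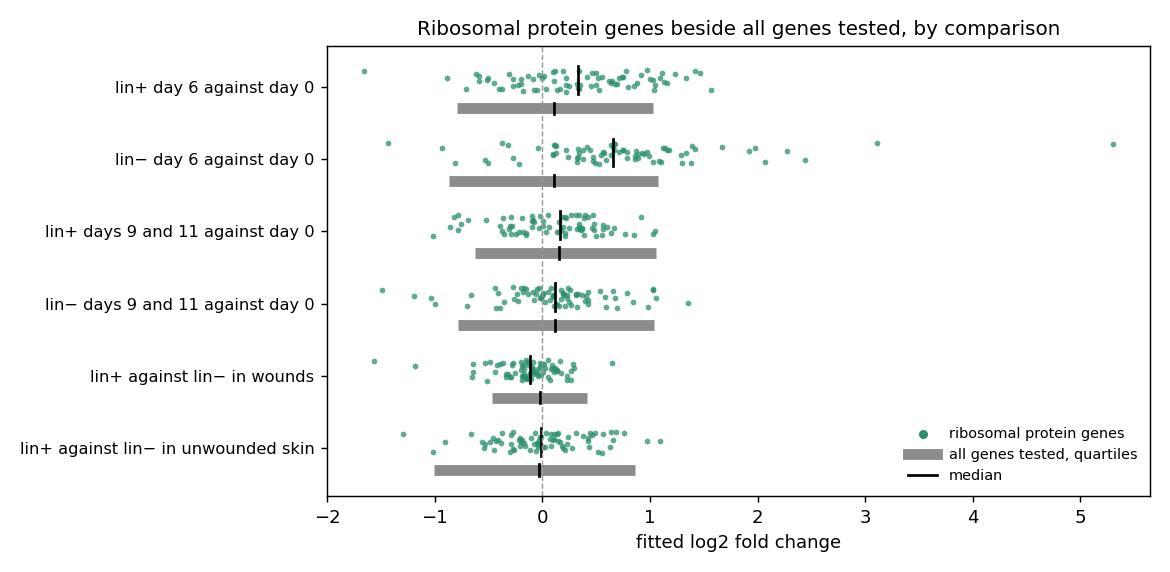
Fitted log2 fold change of each of the 76 members (points, horizontal axis) in 6 comparisons (rows), with the median of the members as a black tick and the quartiles and median of all 10663 tested genes as a grey bar under the points. In lin- cells of day 6 the members' median is 0.66 against 0.11 for all genes, and Rps16 at 5.30 stands far above the rest. In the other rows the members' medians lie between -0.11 and 0.34.

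The batches did not move alike on day 11. Within replicate 1 the members' median change from day 0 was 0.23 on day 9 and -0.28 on day 11 in lin+ cells, with 0.25 and -0.21 for lin-. Within replicate 2 it was 0.19 and 0.39 for lin+, with 0.16 and 0.36 for lin-. The medians of all genes on days 9 and 11 were 0.09 and 0 for lin+ and -0.00148 and -0.15 for lin- in replicate 1, with 0.07 and 0.09 for lin+ and 0.18 and 0.21 for lin- in replicate 2. Both lineages thus showed a lower value on day 11 than on day 9 in the first batch and a higher one in the second. The 2 lineages of each of these sets came from the same mouse. On day 11 of replicate 1, only 26 of 76 members in lin+ and 27 in lin- cells were above 0. The summed share of these sets was still 1.32 and 1.13 times that of day 0, without cells under 200 genes. The sum is weighted to the highest members and was not scaled between sets, unlike the changes of single members.

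The change on days 9 and 11 did not differ detectably between lineages for any member, in a fit that did not pair the lineages of a mouse set. None passed the threshold (0.0188% of all genes did, 2 higher), 1 had an unadjusted p under 0.05 (7.23% of all genes), and edgeR called 0. The median difference was 0.07 for the members and 0.05 for all genes. Besides Rplp0, the highest were Rpl36 (1.05 ± 0.72) and Rpl31 (0.83 ± 1.05), and the lowest were Rpl22 (-2.14 ± 1.50, and -0.72 without cells under 200 genes), Rpl27a (-1.34 ± 0.94) and Rps29 (-1.28 ± 0.90). For Rps29, 1 cell held 87.2% of the summed value of the lin+ day 0 set of replicate 2.

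Between lin+ and lin- cells of unwounded skin, no member passed the threshold, against 0.103% of all genes (6 higher and 5 lower). The member with an unadjusted p under 0.05 was Rpl36 (12.2% of all genes), and edgeR called 0 members. The members' median was -0.01 and that of all genes -0.03, with 37 of 76 above 0 (48.4% of all genes). Rpl36 had scaled values of 250.3 and 25.6 in lin+ cells of replicates 1 and 2, against 318 and 126 in lin- cells (log2 fold change -1.30 ± 0.53, p = 0.0371, adjusted p = 0.371). The groups overlapped across batches, and in both replicates lin+ was the lower. Other values at the ends were Rps29 (1.10 ± 0.60), Rpl27a (0.97 ± 0.62) and Rpl11 (0.76 ± 0.65), and Rpl31 (-1.02 ± 0.84) and Rps12 (-0.91 ± 0.91). For Rps29, 1 cell held 87.2% of the summed value of the lin+ set of replicate 2. In replicate 1 its scaled values were 99.9 in lin+ and 101 in lin- cells.

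In wounds, lin+ and lin- cells did not differ in any member past the threshold, against 0.0938% of all genes (7 higher and 3 lower). 1 member had an unadjusted p under 0.05, against 5.25% of all genes, and edgeR called 0 members. The median was -0.11 for the members and -0.02 for all genes, and 23 of 76 were above 0 (48.6% of all genes). By mouse set the members' median was -0.35 on day 6, -0.07 and 0.08 on day 9 and -0.11 and 0.14 on day 11 for replicates 1 and 2. Rps16 (-1.56 ± 0.25, adjusted p = 0.128) and Rpl22 (-1.18 ± 0.81) were the lowest, and their values were -0.02 for Rps16 and -0.23 for Rpl22 without cells under 200 genes. Rpl27 followed with -0.65 ± 0.34.

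Rpl10, an X-linked large-subunit protein that joins late in assembly, was the member farthest above the others in this contrast. Its scaled values in lin+ cells were 182 on day 6, 48.1 and 94.4 on day 9 and 69.6 and 82.1 on day 11 for replicates 1 and 2. In lin- cells they were 70.7 on day 6, 60.3 and 61.6 on day 9 and 58.9 and 51.0 on day 11. lin+ was higher in 4 of 5 mouse sets (log2 fold change 0.65 ± 0.37, p = 0.113, adjusted p = 1.00). In unwounded skin the values were 86.7 and 155 in lin+ cells, against 76.7 and 71.8 in lin- cells. The next highest was Rps4x (0.30 ± 0.48).

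Other genes of translation were set beside the members. Among the 4 contrasts of wound with day 0, the median log2 fold change of 77 mitochondrial ribosomal proteins, which serve the separate ribosome of the mitochondrion, was 0.59 (days 9 and 11) and 0.71 (day 6) for lin+, with 0.57 and 0.74 for lin-. Of these 77 genes, 54, 56, 61 and 61 were above 0 and none passed the threshold. The 6 elongation factors tested had medians of 0.24, 0.85, 0.65 and 0.85 in the same order, the 13 other mRNAs with a pyrimidine tract 0.11, 0.28, -0.36 and -0.09, and the 22 initiation factors 0.04, 0.12, -0.06 and -0.13. The 7 paralogs tested had medians of -0.02, 0.59, -0.28 and 0.55, and the 16 regulators 0.36, 0.17, 0.45 and -0.07. None of these genes passed the threshold in the 4 contrasts. Small-subunit members had medians of 0.17, 0.38, 0.09 and 0.68, and large-subunit members of 0.16, 0.17, 0.16 and 0.66.

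Malat1, one of the nuclear RNAs whose sum ran against the members from cell to cell, was lower in wounds of days 9 and 11. In lin+ cells its scaled value was 10973, 1625 and 1088 on days 0, 9 and 11 in the first batch and 25901, 8263, 7516 and 4824 on days 0, 6, 9 and 11 in the second. In lin- cells it was 7131, 1578 and 1489 in the first batch and 27497, 6466, 6226 and 9595 in the second. Every wound set lay below the day 0 set of its batch. On days 9 and 11 the log2 fold change was -2.57 ± 0.27 in lin+ cells (adjusted p = 0.00372) and -2.02 ± 0.27 in lin- cells (adjusted p = 0.0191). Neat1 and Kcnq1ot1 did not pass the threshold. Whether the lower Malat1 bears on the members' share was not tested.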

How the data were processed

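The deposited table joins 222 Smart-seq2 cells of a first batch and 462 of a second. The authors trimmed reads with Trimmomatic 0.27, aligned them with STAR 2.2 to GRCm38/mm10 and counted with featureCounts, and annotated cells with Seurat 3.2.2 (submitters' processing notes). The first batch's deposited values are raw read counts, and the authors deposited the second batch as RPKM. In the second, dividing by the step of 1 read gave whole reads recovered for a mean of 99.99% of values under 200 reads (within 0.02, lowest cell 99.7%), and lengths for 19589 genes. Deposited identities, clusters and the percent of ribosomal genes per cell, in percent and of unstated gene content, had medians of 1.27 and 2.04 by batch and a Pearson correlation with the members' share of 0.739 and 0.870. A further 60 per-sample columns had no annotated cell and were not used, and 6 blank wells were left out.

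Values were scaled to the cell total as 1000000, averaged over the cells of each of the 14 sets and put on 1 scale per batch by median-of-ratios factors. Genes that reached 10 in 2 or more sets were tested with limma 3.58.1 (trend, 1 added before log2, R 4.3.3). Contrasts of wound with day 0, and the difference between lineages in that change, took lineage and day as groups and the replicate as batch. That difference was therefore not paired by mouse set. Contrasts of lin+ with lin- cells took the mouse set as a block, since its 2 lineages came from the same mice (for day 6, from 6 mice in 2 merged replicates). The threshold was an adjusted p of 0.05. edgeR 4.0.16 on recovered reads was an alternative, and the scripts were tested on simulated data. The correlation of same-numbered sets of the 2 lineages after the batch term was -0.214, -0.0116 and -0.103 on days 0, 9 and 11, and 0.274, 0.520 and 0.410 before it.

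Named genes were the 5 highest and 5 lowest by TPM, members past the threshold, the 3 highest and 3 lowest changes per comparison, those over 3 scaled MADs from the members' median, and the 5 least and 3 most like the other members. Some genes that this rule names are not reported here. The members and the lists of translation genes and cell type markers were chosen with earlier results of these data known. Windows of 75 bases were taken from GENCODE transcripts.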

Additional observations from a re-analysis of the deposited data

How the results depend on the processing

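No member other than Rps16 passed the threshold under any of the settings run. In lin- cells of day 6 the count of 1 became 0 with reads as CPM, with edgeR, without cells under 200 genes (chosen after seeing the data), with at least 1000 genes and with no replicate block, and was 0 to 1 with a mouse set left out (0 without day 0 replicate 2 and without either day 9 replicate). Rps16 stood at 5.23, 0.64, 0.65, 0.42 and 4.82 under these 5 settings. With no replicate block the median of lin+ day 6 was 0.0365 in place of 0.34, and the block or pairing changed no other call. The median difference between lineages on days 9 and 11 was 0.12 with TPM, 0.0230 with no scaling of sets, -0.0249 in IFE-B cells and 0.0130 with at least 1000 genes. In unwounded skin the median was 0.0511 in IFE-B cells and 0.0522 with at least 1000 genes. Rpl22 in lin- cells of days 9 and 11 was -0.12 with edgeR, -0.0681 without cells under 200 genes and -0.00503 with at least 1000. In IFE-B cells Rps12 was 0.0574 in lin- cells of day 6 and 0.32 between lineages in unwounded skin, where Rps29 was -0.63, and Rps29 was 0.44 in the difference between lineages. Rps16 between lineages in wounds was 0.11 with edgeR and 0.11 with at least 1000 genes. The median of the 4 ratios of wound to day 0 share in the first batch was 1.15 with TPM and 1.10 without ribosomal RNA rows, against 1.40. The cause was not tested in any of these.

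With each mouse set left out in turn, medians ran from -0.0240 to 0.31 (lin+ days 9 and 11), 0.24 to 0.46 (lin+ day 6), -0.0756 to 0.38 (lin- days 9 and 11), 0.56 to 0.78 (lin- day 6), -0.0242 to 0.11 (difference between lineages), -0.0795 to 0.00145 (unwounded) and -0.16 to 0.01 (wounds). Reversals among named genes were Rpl27a (-0.13 to 2.19) and Rpl22 (-0.0654 to 2.78) in lin- days 9 and 11, Rps29 (-0.00992 to 2.204) and Rps12 (-1.83 to 0.0202) in unwounded skin, and Rps16 in wounds (-1.61 to 0.22). With no scaling of sets the median of all genes moved to 0.26 in lin+ and 0.27 in lin- cells of days 9 and 11, from 0.15 and 0.12, and in lin- cells of day 6 to -0.08, with the members at 0.44. Leaving out all of replicate 1 or 2 could not be fitted, since 1 set per lineage and day remains. The other 1005 values kept their call or moved by less than the spread between replicates.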

Other observations

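Rows whose symbols begin like those of the members but fall outside the rule numbered 60, of which 35 are named as pseudogenes. They include genes that encode no ribosomal protein, such as Rps19bp1 (mean 0.00964% and 0.0164% by batch) and S6 kinases such as Rps6kb1 (0.00270% and 0.00481%). Together the 60 rows took a median of 0.835% of the cell total in the first batch and 2.03% in the second, where they exceeded the 1.80% of the 76 members. Rps27rt led the 60 rows with a mean of 0.158% in the first batch and 0.796% in the second, followed by Rpl34-ps1 with 0.0607% and 0.263%. With these rows added to the sum, the mean share in wounds was above that of day 0 in 10 of 10 comparisons, by 1.05 to 1.83 times (to 1.72 without cells under 200 genes), and that of lin+ cells was above that of lin- cells in 1 of 7 mouse sets. This sum was chosen after seeing the data.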
